A study of Mus musculus with 8 samples.

Results

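The transcripts of Pomc and of 6 genes whose products cut, protect or finish POMC peptides were followed across 8 libraries of mouse pituitary neuro-intermediate lobe. The 7 genes were taken by symbol and joined by Ensembl identifier between a table of gene counts and a table of expression per length. They were Pomc, Pcsk1, Pcsk2, Pcsk1n, Scg5, Cpe and Pam, 7 of 48526 genes in the count table, and all 7 were among the 15580 genes that passed the limit on low counts.

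POMC is a hormone precursor with no known activity of its own. In melanotropes, the endocrine cells of the intermediate lobe, it enters the secretory pathway and is cut at pairs of basic residues by the prohormone convertases PC1/3 (Pcsk1) and PC2 (Pcsk2), so that the main products are alpha-MSH and beta-endorphin rather than the ACTH of anterior lobe corticotropes. Carboxypeptidase E (Cpe) then removes the exposed basic residues, PAM amidates the carboxyl end of alpha-MSH, and proSAAS (Pcsk1n) and 7B2 (Scg5) are known as partners of PC1/3 and PC2 that inhibit or chaperone them.

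The question of the design was what blocking the transcription factors Creb3l2 and XBP1 does to these secretory cells. All mice were C57B6, and each library came from a pool of 5 lobes. WT lobes carried no transgene, ACreb3l2 and AXBP1 lobes carried 1 transgene each, and ACreb3l2/AXBP1 lobes carried both, with 2 libraries per group. Each transgene encodes a dominant negative protein in which an acidic stretch replaces the DNA-binding basic region, and the rat POMC promoter drives it in POMC cells. The study describes its mice for this assay as 3-month-old males and shows 1 line per transgene. Other cells of the lobe carried the transgenes too, but the promoter is meant to be active in POMC cells. The tissue also holds nerve endings and pituicytes of the posterior lobe, so these are whole-lobe levels, and in bulk RNA fewer cells of a type cannot be told apart from less RNA per cell.

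Libraries held 28256086 to 37988912 counts. The melanotrope markers Pax7, Tbx19 and Drd2 were present in every library, with mean FPKM values of 62.1, 154 and 145. Neurod1, which was put on the same list, stood at 0.13, was too low to be tested and is not read here as a marker of melanotropes. Anterior lobe RNA was present too: Gh had a mean FPKM of 3781. The 11 anterior lobe markers summed to 4808 and 7121 CPM (counts scaled to a common library total) in the WT libraries, to 5088 and 3878 in those of ACreb3l2, to 2494 and 2612 in those of AXBP1, and to 6391 and 3302 in the double transgenic ones. Corticotropes of that lobe also express Pomc, and the part of such RNA in the results was not tested. No marker was at 0 in any library.

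Pomc was by far the most abundant of the 7 transcripts. It took between 6.91% and 14.6% of all counts in a library, and the other 6 genes together took 0.668% to 1.04%. By FPKM, the deposited level per length of transcript, Pomc ranked first of all genes in every library but ACreb3l2/AXBP1 2, where it ranked 2. Its FPKM was 96.4 to 136 times that of the next of the 7 genes. That next gene was Cpe in most libraries and Pcsk2 in WT 2 and AXBP1 1. The 2 convertases were far from equal: Pcsk1 had the lowest FPKM of the 7 genes in every library, 49.9 to 134, against 441 to 1037 for Pcsk2. Pcsk1n was the second lowest in every library, and Scg5, Pam and Pcsk2 changed places with one another.

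**Figure D1:**
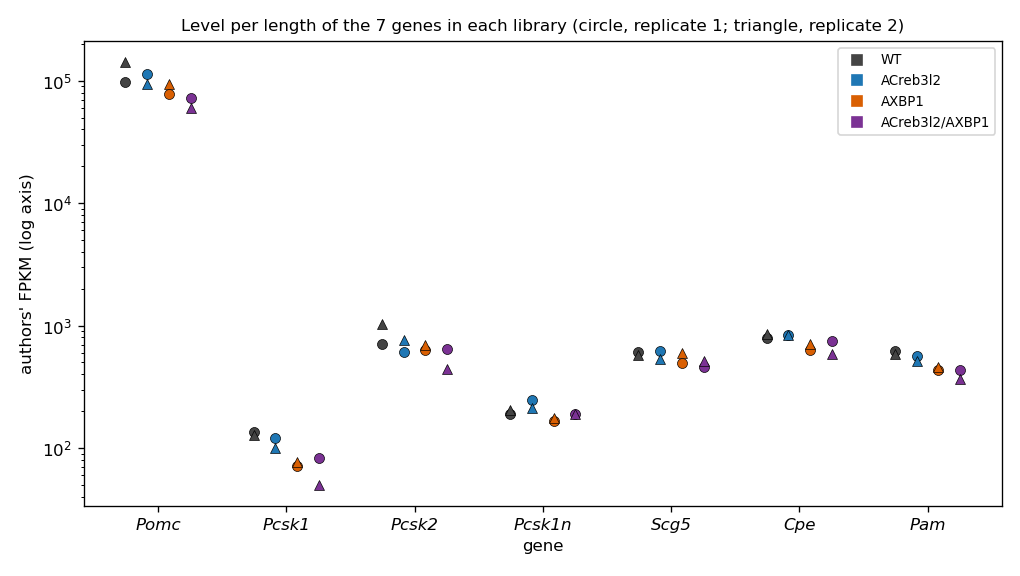
Authors' FPKM (vertical log axis) of the 7 genes in each of the 8 libraries, coloured by group, with circles for replicate 1 and triangles for replicate 2. Pomc lies at 59960 to 141231, the 5 genes Pcsk2, Pcsk1n, Scg5, Cpe and Pam lie between 167 and 1037, and Pcsk1 is lowest throughout.

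The Pomc gene lies on chromosome 12 from 3954951 to 3960642 on the plus strand (mm10, GENCODE M21). Promoters of 6 of the 7 genes were read from RefSeq (build GRCm38.p6) because the transgenes act against bZIP factors, many of which recognise elements with an ACGT core. The sequences below stop at the first base annotated as transcribed, run 5′ to 3′ on the strand of the gene, and have every ACGT in capitals. Pomc is shown as the substrate, Pcsk1 as the gene with the largest log2 change of the 7 in the double transgenic lobes, and Pam as the gene with the lowest adjusted p there.
Pomc, chr12:3954695-3954944, plus strand: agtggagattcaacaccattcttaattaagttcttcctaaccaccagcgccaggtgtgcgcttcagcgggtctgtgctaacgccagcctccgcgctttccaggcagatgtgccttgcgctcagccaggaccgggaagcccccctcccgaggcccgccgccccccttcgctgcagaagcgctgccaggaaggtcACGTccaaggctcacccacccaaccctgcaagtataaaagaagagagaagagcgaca
Pcsk1, chr13:75089607-75089825, plus strand: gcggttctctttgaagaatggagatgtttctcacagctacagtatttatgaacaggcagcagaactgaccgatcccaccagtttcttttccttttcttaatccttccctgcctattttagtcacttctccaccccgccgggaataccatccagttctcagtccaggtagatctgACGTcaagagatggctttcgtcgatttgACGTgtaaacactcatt
Pam, chr1:98095647-98095896, minus strand: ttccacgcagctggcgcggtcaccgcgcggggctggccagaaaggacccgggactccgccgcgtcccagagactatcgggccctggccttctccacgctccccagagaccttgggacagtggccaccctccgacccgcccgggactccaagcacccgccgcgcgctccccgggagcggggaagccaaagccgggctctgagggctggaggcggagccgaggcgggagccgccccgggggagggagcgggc
In the 250 bases before the RefSeq start, ACGT (the same letters on both strands) was found once for Pomc, at position -57, at 2 places for Pcsk1, at positions -76 and -48 (its printed run ends 31 bases before that start, so 31 bases lie between its last letter and the position from which these are counted), once for Scg5, at position -173, and not in the windows of Pcsk2, Pcsk1n and Pam. Of 32851 RefSeq promoter windows of that length, 26.9% held ACGT. The longer form TGACGT, or ACGTCA on the other strand, which includes ACGT, was found in the windows of Pcsk1 (3 matches, of which those at -78 and -76 overlap) and Scg5 (1 match), and 6.5% of all windows held it. CCACG, or CGTGG on the other strand, was found for Pam alone of the 6 genes, with 2 matches in the window printed, and 28.3% of all windows held it. The windows differed in composition, from 46.8% G and C for Pcsk1 to 82.4% for Pcsk2.

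The next values are normalized counts, which are counts scaled to a common library size with TMM factors. The WT libraries held 3455637 and 5173336 normalized counts of Pomc, those of ACreb3l2 3857770 and 3410482, those of AXBP1 3161210 and 3724850, and the double transgenic libraries 2762303 and 2047009. The 2 double transgenic libraries were the lowest of the 8, and the 2 WT libraries differed 1.50-fold, with WT 1 inside the range of the single transgenic groups. The group mean was 4314486 ± 1214596 for WT, 3634126 ± 316281 for ACreb3l2, 3443030 ± 398553 for AXBP1 and 2404656 ± 505789 for ACreb3l2/AXBP1 (SD, n = 2). Against WT, the log2 change of Pomc was -0.25 ± 0.25 (SE) with ACreb3l2, -0.33 ± 0.25 with AXBP1 and -0.84 ± 0.25 with both. By the edgeR quasi-likelihood test, adjusted over all genes, none of the 3 passed 0.05 (adjusted p = 0.672, 0.646 and 0.0614). The 95% interval of the change in the double transgenic lobes, -1.41 to -0.28, lay below 0 before that adjustment. With DESeq2 in place of edgeR the adjusted p was 0.0209, and by edgeR it was 0.0244 without WT 1 (log2 change -1.11) and 0.0425 without ACreb3l2/AXBP1 1 (-1.08). It was 0.279 without WT 2 (-0.53) and 0.333 without ACreb3l2/AXBP1 2 (-0.65), and it did not pass without any 1 of the 4 single transgenic libraries either (adjusted p up to 0.105). Where a group is left with 1 library in such a fit, that library is assumed to vary like those of the other groups. Every fit against WT shares the 2 WT libraries, so the 3 changes are not independent of one another.

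**Figure D2:**
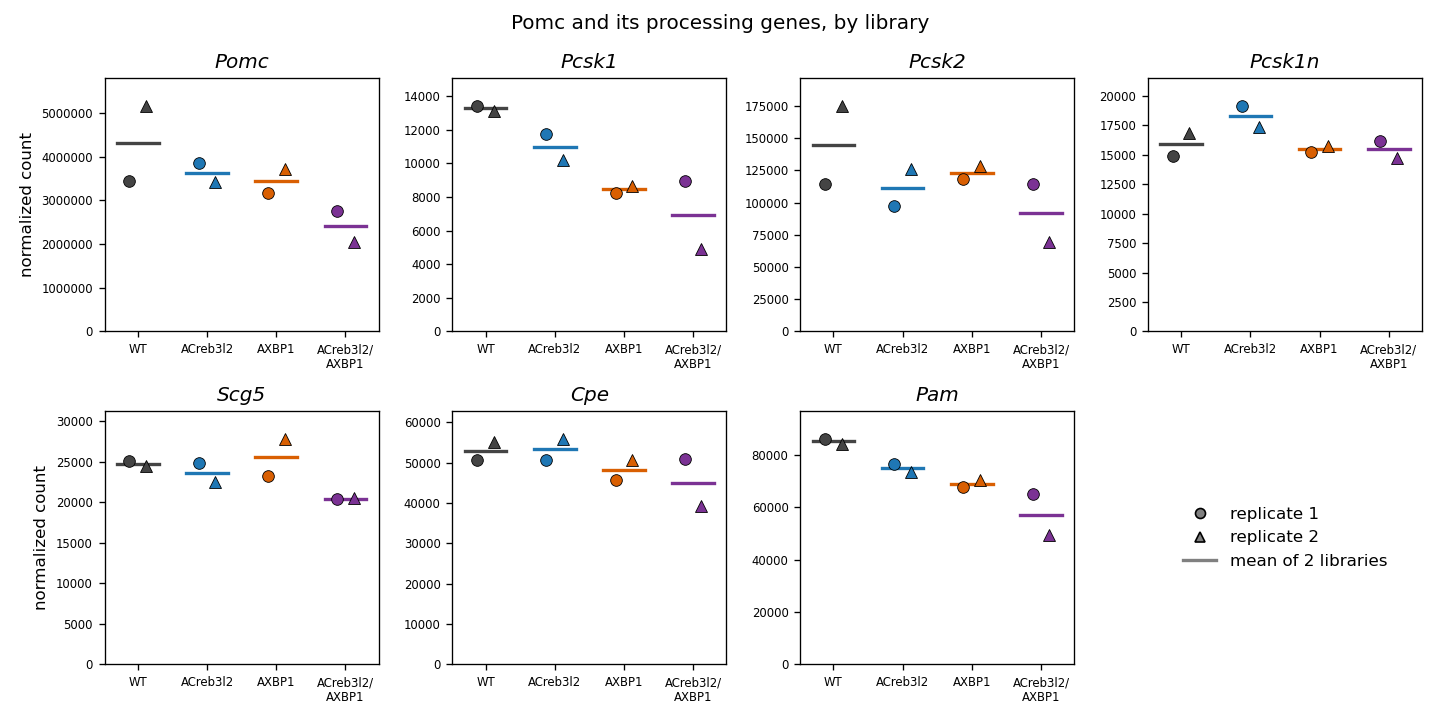
Normalized counts (vertical axes, from 0) of the 7 genes in the 4 groups. Circles are replicate 1, triangles replicate 2 and bars the means of 2 libraries, and the second ACreb3l2/AXBP1 library is the lowest of all 8 for 6 of the 7 genes.

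Pcsk1 encodes PC1/3, the convertase that makes the first cuts in POMC. It lies on chromosome 13 from 75089826 to 75134861 on the plus strand. The WT libraries held 13449 and 13099 normalized counts of Pcsk1, those of ACreb3l2 11748 and 10182, those of AXBP1 8261 and 8663, and the double transgenic libraries 8945 and 4926. All 6 transgenic libraries were below both WT libraries, and all 4 libraries with the AXBP1 transgene were below the 4 without it. Replicates were close in WT (1.03-fold apart), and far apart in the double transgenic group (1.82-fold). The log2 changes against WT were -0.28 ± 0.25 (SE) with ACreb3l2, -0.65 ± 0.25 with AXBP1 and -0.94 ± 0.25 with both, where the mean was 52.2% of that in WT. None passed by edgeR (adjusted p = 0.632, 0.495 and 0.0593). The last of them passed with DESeq2 (adjusted p = 0.0215), and by edgeR it also passed without either one of the 2 double transgenic libraries (adjusted p = 0.00174 without replicate 1, with a log2 change of -1.43, and 0.0498 without replicate 2, with -0.58). It did not pass without WT 1 (adjusted p = 0.129), WT 2 (0.231) or any 1 of the 4 single transgenic libraries (0.0665 to 0.102).

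Pcsk2 encodes PC2, the convertase that carries the cleavage on to alpha-MSH and beta-endorphin. It lies on chromosome 2 from 143546156 to 143816285 on the plus strand, and 2 antisense genes overlap its exons, Pcsk2os1 over 260 bases and Pcsk2os2 over 99 bases. Whether the counting used strand is not given in the sources used here, so reads of these partners cannot be told apart from those of Pcsk2. For Pcsk2 the normalized counts were 114755 and 175316 with no transgene, 96965 and 125792 with ACreb3l2, 118277 and 128044 with AXBP1, and 114158 and 69120 with both. WT 2 stood above all other libraries and ACreb3l2/AXBP1 2 below them, and the remaining 6 lay together. The log2 changes against WT were -0.38 for ACreb3l2 (-0.65 to -0.044 with 1 library left out), -0.24 for AXBP1 (-0.51 to 0.10) and -0.66 for the double transgenic lobes. Each had an SE of 0.28, and none passed by edgeR (adjusted p = 0.546, 0.771 and 0.162). Single libraries moved the last of these from -0.33 without WT 2 (adjusted p = 0.598) and -0.35 without ACreb3l2/AXBP1 2 (0.580) to -1.07 without ACreb3l2/AXBP1 1, where it passed (0.0440).

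Pcsk1n encodes proSAAS, which binds and inhibits PC1/3. It lies on chromosome X from 7919822 to 7924410 on the plus strand, and Eras on the other strand overlaps its exons over 135 bases. Pcsk1n had 14891 and 16870 normalized counts in the WT pair, 19178 and 17384 in the ACreb3l2 pair, 15199 and 15761 in the AXBP1 pair, and 16188 and 14746 in the double transgenic pair. Both ACreb3l2 libraries were above all others, with a log2 change of 0.20 ± 0.10 against WT that did not pass by edgeR (adjusted p = 0.344). In AXBP1 and ACreb3l2/AXBP1 the log2 change was -0.04 in each, with 95% intervals of -0.26 to 0.18 in both, and the sign of both turned to 0.03 and 0.12 when counts were scaled by library size alone. Of the 7 genes Pcsk1n varied least over the libraries, 1.30-fold from the lowest to the highest, against 2.73-fold for Pcsk1.

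Scg5 encodes 7B2, the chaperone that PC2 needs to become active. It lies on chromosome 2 from 113776362 to 113829121 on the minus strand. Normalized counts of Scg5 were 25017 and 24393 for WT, 24758 and 22446 for ACreb3l2, 23204 and 27833 for AXBP1, and 20378 and 20502 for the double transgenic lobes. The double transgenic libraries were the 2 lowest and lay within 1% of each other, so Scg5 is the 1 gene of the 7 for which the second double transgenic library was not the lowest of all. The log2 change there was -0.27 ± 0.11 against WT (edgeR adjusted p = 0.122), and it was -0.07 in ACreb3l2 and 0.05 in AXBP1 (adjusted p = 0.804 and 0.884). The first of these turned to 0.0078 with library-size scaling and the second to -0.12 with FPKM.

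Cpe encodes the carboxypeptidase that trims basic residues after cleavage. It lies on chromosome 8 from 64592542 to 64693054 on the minus strand. The normalized counts of Cpe were 50578 and 55062 with no transgene, 50729 and 55978 with ACreb3l2, 45776 and 50615 with AXBP1, and 50876 and 39162 with both. ACreb3l2/AXBP1 2 was below all others, and the remaining 7 libraries lay between 45776 and 55978. The log2 changes against WT of 0.01 with ACreb3l2, -0.13 with AXBP1 and -0.23 with both did not pass by edgeR (adjusted p = 0.970, 0.728 and 0.277), and the 95% interval in ACreb3l2 was -0.29 to 0.31.

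Pam encodes the copper and ascorbate dependent enzyme that amidates peptides. It lies on chromosome 1 from 97795114 to 98095646 on the minus strand, and a noncoding gene on the same strand, B230216N24Rik, shares 188 exonic bases with it. The WT libraries held 86339 and 84239 normalized counts of Pam, those of ACreb3l2 76701 and 73609, those of AXBP1 67615 and 70577, and the double transgenic libraries 65195 and 49386. The groups were ordered WT, ACreb3l2, AXBP1 and ACreb3l2/AXBP1 with no overlap between neighbours. Separation is common with 2 libraries per group: those of ACreb3l2/AXBP1 and WT did not overlap for 58.3% of all tested genes. Pam fell in ACreb3l2/AXBP1, with a log2 change of -0.57 ± 0.13 against WT (95% interval -0.87 to -0.28, edgeR adjusted p = 0.0268), to 67.2% of the WT mean. The change was -0.18 ± 0.13 in ACreb3l2 and -0.30 ± 0.13 in AXBP1, and neither passed by edgeR (adjusted p = 0.533 and 0.496). The call of Pam was lost when any 1 of 5 libraries was left out: the adjusted p was 0.0518 without WT 1, 0.0934 without WT 2, 0.0573 without AXBP1 1, 0.0567 without AXBP1 2, and 0.147 without ACreb3l2/AXBP1 2, where the log2 change was -0.40. It was also lost when the 4 libraries of the comparison were fitted alone (adjusted p = 0.0948).

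Counted together, the ACreb3l2 lobes had 5 of the 7 genes lower than WT (48.2% of all tested genes), the AXBP1 lobes 6 of 7 (49.7%) and the double transgenic lobes 7 of 7 (48.3%). With library-size scaling alone the sign turned for Scg5 in ACreb3l2 and for Pcsk1n in AXBP1 and ACreb3l2/AXBP1, and with FPKM it turned for Scg5 in AXBP1, so the counts rest in part on these 2 genes. The median log2 change of the 7 was -0.18, -0.24 and -0.57, and that of all tested genes was 0.01, 0.00 and 0.01. In ACreb3l2 against WT, 0 of the 7 genes were called by edgeR, where 3.04% of all tested genes were, and 0 of the 7 were under 0.05 before adjustment, where 16.8% of all tested genes were. For AXBP1 against WT, 0 of the 7 were called, where 0% of all tested genes were, and 2 of the 7 (Pcsk1 and Pam) were under 0.05 before adjustment, where 9.97% of all tested genes were. DESeq2 and limma on the FPKM also called 0 of the 7 in both comparisons. In ACreb3l2/AXBP1 against WT, 1 of the 7 (Pam) was called, where 10.1% of all tested genes were, and 5 of the 7 (Pomc, Pcsk1, Pcsk2, Scg5 and Pam) had an unadjusted p under 0.05, where 29.7% of all tested genes did. DESeq2 called Pomc, Pcsk1 and Pam in that comparison, among 2074 of all tested genes, and limma on log2(FPKM + 1) called Pcsk1 and Pam, among 1107. The libraries of those 5 genes did not overlap with WT, as for 58.3% of all tested genes.

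**Figure D3:**
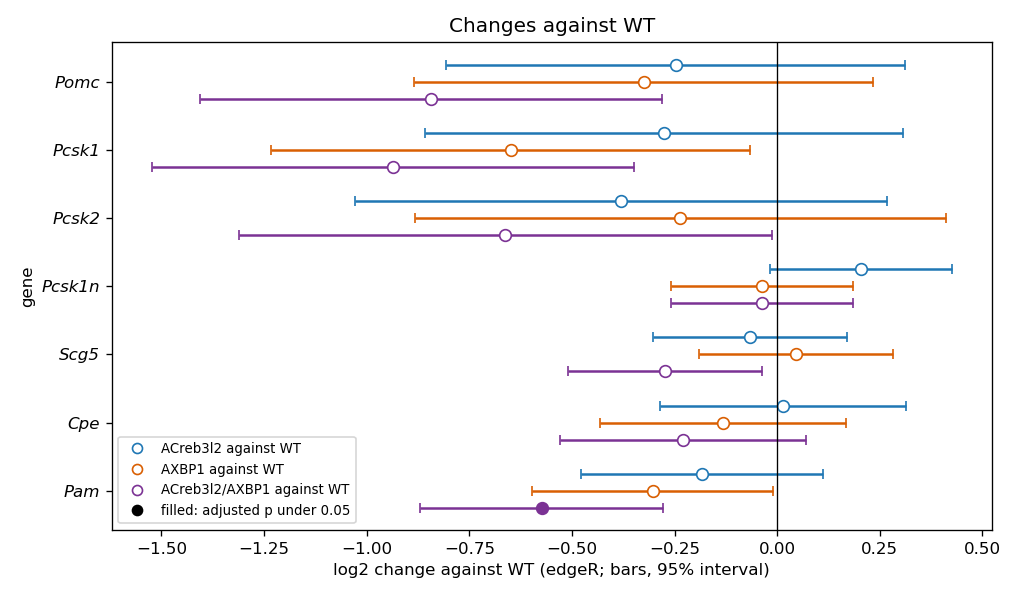
Log2 change of the 7 genes against WT (horizontal axis) in the 3 transgenic groups, from the edgeR fit, with 95% intervals and filled points for adjusted p under 0.05. Pam in ACreb3l2/AXBP1 (-0.57) is the one filled point, and in that group Pomc, Pcsk1, Pcsk2 and Scg5 also have intervals below 0 before adjustment.

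Without ACreb3l2/AXBP1 2, the library that was lowest for 6 of the 7 genes, 1 of the 7 (Pcsk1, log2 change -0.58) was called in the double transgenic lobes against WT, with 215 called over all genes tested. Without ACreb3l2/AXBP1 1, 4 of the 7 (Pomc, Pcsk1, Pcsk2 and Pam) were called, with 2050 called over all genes tested, against 1566 with all 8 libraries. Sums of 2 marker lists are given for the second library as well. The 6 genes of the melanotrope list, which leaves out the genes described here, summed to 905 CPM there, against 1212 in ACreb3l2/AXBP1 1 and 1153 to 1540 in the other 6 libraries. Tbx19, which edgeR called lower in ACreb3l2/AXBP1, is part of that sum. The 6 endothelial markers summed to 223 CPM in the second library, near the 222 of AXBP1 1, and to 108 to 189 in the others. Their part in the levels of the 7 genes was not tested.

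The transgenic groups were also compared with one another. In ACreb3l2 against AXBP1, 0 of the 7 genes were called by edgeR (0.719% of all tested genes), and 1 was under 0.05 before adjustment (9.49%): Pcsk1n was higher in ACreb3l2, with a log2 difference of 0.24 (95% interval 0.02 to 0.46, adjusted p = 0.475). Pcsk1 was higher in both ACreb3l2 libraries than in both AXBP1 libraries, by 0.37 ± 0.25 on the log2 scale (adjusted p = 0.738). All 11 anterior lobe markers were also higher in ACreb3l2 there, with a median of 0.65. All 6 endothelial and all 6 fibroblast or pericyte markers were lower, with medians of -0.47 and -0.36. Of these 3 lists edgeR called 0 genes, and their part in the differences of the 7 genes was not tested. In ACreb3l2/AXBP1 against AXBP1, 0 of the 7 were called by edgeR (0.623% of all tested genes), 1 of the 7 (Scg5, log2 change -0.32, adjusted p = 0.287) was under 0.05 before adjustment (11.1%), and the change of Pomc was -0.52 with a 95% interval of -1.08 to 0.04. In ACreb3l2/AXBP1 against ACreb3l2, 0 of the 7 were called by edgeR (0% of all tested genes), 4 of the 7 had an unadjusted p under 0.05 (7.14% of all tested genes), and all 7 were lower (49.9% of all tested genes). DESeq2 and limma on the FPKM called 0 of the 7 in these 3 comparisons. The interaction, by which the double transgenic change departs from the 2 single changes added together, was -0.27 ± 0.35 for Pomc and -0.01 ± 0.35 for Pcsk1. It passed for 0 of the 7 genes and for 0% of all tested genes by edgeR, 0 of the 7 were under 0.05 before adjustment (2.48% of all tested genes), and DESeq2 and limma also called 0 of the 7. Its 95% interval for Pomc, -1.06 to 0.52, allows departures from a plain sum on the log2 scale in either direction. With 1 library left out, the Pomc interaction ranged from -0.59 to -0.0084.

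Because each transgene is carried by 4 of the 8 libraries, its average change was also computed with 4 libraries on either side. For the AXBP1 transgene, Pcsk1 was lower by a log2 value of -0.66 (95% interval -1.07 to -0.24, edgeR adjusted p = 0.207), Pomc by -0.46 (-0.86 to -0.06, adjusted p = 0.276) and Pam by -0.35 (-0.56 to -0.14, adjusted p = 0.187). By edgeR 0 of the 7 were called (0.0321% of all tested genes), and these 3 had an unadjusted p under 0.05 (15.7% of all tested genes). DESeq2 called Pam (adjusted p = 0.00442), among 366 of all tested genes, and limma on log2(FPKM + 1) called Pcsk1 and Pam, among 491. For 2 of the 7, Pcsk1 and Pam, the 4 libraries with the AXBP1 transgene did not overlap with the 4 without it, as for 5.76% of all tested genes. For the ACreb3l2 transgene, 0 of the 7 were called by edgeR (6.75% of all tested genes), DESeq2 or limma, and 2 of the 7, Scg5 (-0.19) and Pam (-0.23), had an unadjusted p under 0.05 (22.5% of all tested genes; edgeR adjusted p = 0.164 and 0.188). For 0 of the 7 did the libraries with and without ACreb3l2 stay apart, as they did for 13.9% of all tested genes.

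The balance between members was read as ratios of counts within a library, which need no scaling between libraries. The ratio of Pcsk1n to Pcsk1, inhibitor to convertase, was 1.11 and 1.29 for the WT pair, 1.63 and 1.71 for ACreb3l2, 1.84 and 1.82 for AXBP1, and 1.81 and 2.99 for the double transgenic pair. All 4 libraries with AXBP1 were above the 4 without it, by a mean log2 difference of 0.55. An exact two-sided permutation test gave p = 0.0286, the smallest that 4 libraries against 4 can give, and 0.229 after adjustment over the 8 tests of this kind. The ratio of Pcsk1 to Pcsk2, the convertase of the first cuts to that of the later ones, was 0.117 and 0.0747 for the WT pair, 0.121 and 0.0809 for ACreb3l2, 0.0698 and 0.0677 for AXBP1, and 0.0784 and 0.0713 for the double transgenic pair. WT and ACreb3l2 each had 1 library far above the others, and the mean log2 difference for AXBP1 was -0.43 (exact permutation p = 0.0571, adjusted 0.229). The ratio of Pomc to Pcsk2 ran from 24.2 to 39.8 and that of Scg5 to Pcsk2 from 0.139 to 0.297, with no adjusted p under 0.457 for either transgene by the same exact test.

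**Figure D4:**
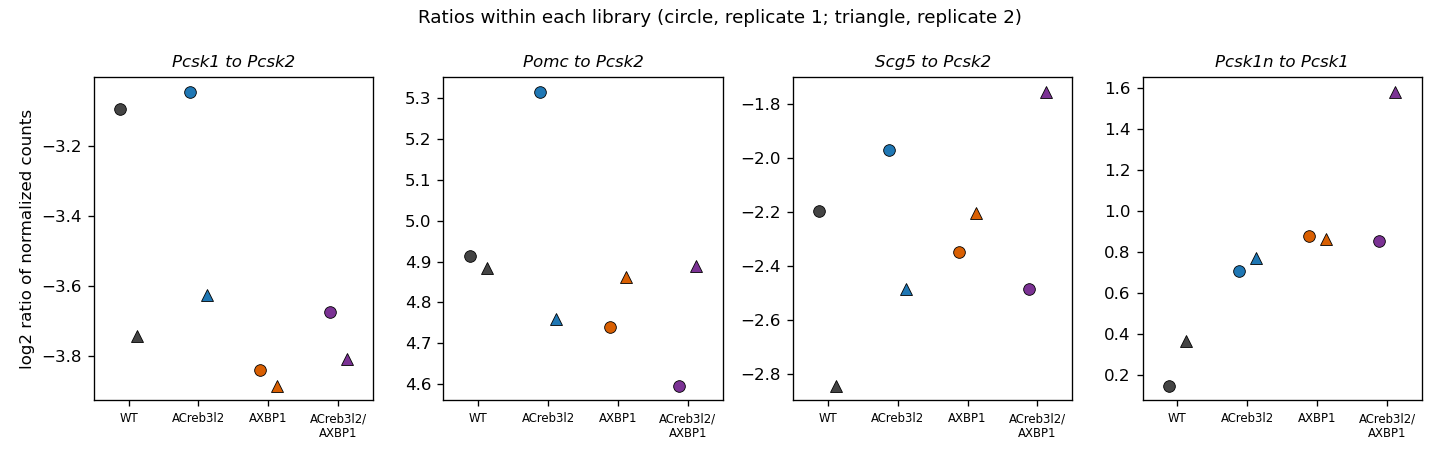
Log2 ratio of normalized counts within each library (vertical axes) for 4 pairs of genes in the 4 groups, with circles for replicate 1 and triangles for replicate 2. For Pcsk1n to Pcsk1 the 4 libraries with AXBP1 lie at 0.86 to 1.58 and the 4 without it at 0.15 to 0.77.

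Genes that work beside the 7 were taken as whole lists. Over all tested genes, edgeR called 3.04% for ACreb3l2, 0% for AXBP1 and 10.1% for both transgenes against WT, and 16.8%, 9.97% and 29.7% were under 0.05 before adjustment. Of 7 other proprotein convertases 6 were tested, and 0 were called by edgeR or DESeq2 in any of the 3 comparisons with WT, with 1 in ACreb3l2, 0 in AXBP1 and 2 in the double transgenic lobes under 0.05 before adjustment. The 2 with the highest FPKM were Mbtps1, the Golgi site-1 protease, with a log2 change of 0.20 in ACreb3l2/AXBP1 (adjusted p = 0.131), and Furin, the convertase of the constitutive pathway, with -0.12 (adjusted p = 0.445). All 14 other trimming and modifying enzymes were tested, and edgeR called 2 lower and 0 higher in ACreb3l2/AXBP1, with 5 of the 14 under 0.05 before adjustment. DESeq2 called 4 lower and 1 higher, limma on log2(FPKM + 1) called 2 lower and 0 higher, and edgeR with library-size scaling called 2 lower and 1 higher. Cpz, a carboxypeptidase of the extracellular matrix, had 197 and 218 normalized counts with no transgene, 58.4 and 38.8 with ACreb3l2, 154 and 220.2 with AXBP1, and 66.2 and 39.0 with both. It was low in exactly the 4 libraries with the ACreb3l2 transgene, and fell by 2.07 on the log2 scale in ACreb3l2 and by 1.98 in ACreb3l2/AXBP1 against WT (edgeR adjusted p = 0.00566 and 0.00472). Ece2, an endothelin-converting enzyme family member that cuts neuropeptides, fell by 0.79 in ACreb3l2/AXBP1 (adjusted p = 0.00439), and 2937 of its exonic bases are shared with Gm49333 on the same strand, so its counts are uncertain.

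Of 8 genes that supply PAM with copper and ascorbate 7 were tested. Slc23a2, the ascorbate transporter SVCT2, had 12301 and 11167 normalized counts with no transgene, 11031 and 8533 with ACreb3l2, 7964 and 9871 with AXBP1, and 7646 and 5939 with both, and fell by 0.79 on the log2 scale in the last group (edgeR adjusted p = 0.0240). Its double transgenic libraries were the lowest of the 8. Slc31a1, the copper importer CTR1, fell by 0.26 on the log2 scale as the average of the ACreb3l2 transgene (adjusted p = 0.0474), and all 4 libraries with that transgene, 661 to 693 normalized counts, were below the 4 without it, 762 to 832. That call was lost without any 1 of the 8 libraries (adjusted p = 0.0650 to 0.205) and held in 1 of 15 alternatives.

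Of 25 V-ATPase subunits, which acidify the granules in which the convertases work, 20 were tested. In ACreb3l2/AXBP1 18 of the 20 were lower than in WT, with a median of -0.15, against 0.01 for all tested genes, but with library-size scaling 10 of the 20 were lower, with a median of 0.0062 against 0.17. By edgeR 5 of the 20 were under 0.05 before adjustment and 1 was called: Atp6v0a2 fell by 0.43 on the log2 scale (edgeR adjusted p = 0.0231). DESeq2 called 3 of the 20 lower, and limma on log2(FPKM + 1) called 1. With library-size scaling 0 of the 20 were called, and 2 were under 0.05 before adjustment by edgeR. The call of Atp6v0a2 was also lost with the 4 libraries of the comparison alone. In AXBP1 19 of the 20 were lower, with a median of -0.13, and with library-size scaling 15 were, with a median of -0.068 against 0.061 for all tested genes. There 0 were called by edgeR, DESeq2 or limma on log2(FPKM + 1), and 1 was under 0.05 before adjustment by edgeR. With FPKM all 20 were lower there, with a median of -0.25 against -0.13 for all tested genes, and 11 were under 0.05 before adjustment by limma. The 2 subunit genes of highest FPKM, Atp6v1f and Atp6ap1, had log2 changes of -0.09 and -0.21 in ACreb3l2/AXBP1 (adjusted p = 0.491 and 0.170). Of the 5 other granins, the acidic proteins of the granule core, all 5 were lower in ACreb3l2/AXBP1 (4 with library-size scaling), 3 were under 0.05 before adjustment by edgeR and 1 was called by it. DESeq2 called 2 of the 5 lower, and limma on log2(FPKM + 1) called 1. Scg2 fell by 0.57 on the log2 scale (edgeR adjusted p = 0.0253), a call that held in 11 of 16 alternatives and was lost with the 4 libraries alone, while Chga, the granin with the highest FPKM, had a log2 change of -0.07 (adjusted p = 0.885).

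Of 11 regulators of the Pomc gene 10 were tested, and in ACreb3l2/AXBP1 edgeR and DESeq2 each called 2 lower and 1 higher, and limma on log2(FPKM + 1) called 2 lower and 0 higher, where edgeR called 10.1% of all tested genes. Tbx19, which encodes Tpit, the T-box factor that drives Pomc in melanotropes and corticotropes, had 21306 and 23073 normalized counts with no transgene, 18294 and 14649 with ACreb3l2, 13827 and 14976 with AXBP1, and 14454 and 9590 with both. All 6 transgenic libraries were below WT, and Tbx19 fell by 0.88 on the log2 scale in ACreb3l2/AXBP1 (edgeR adjusted p = 0.0245). Its changes of -0.43 in ACreb3l2 and -0.62 in AXBP1 did not pass by edgeR (adjusted p = 0.288 and 0.474). In AXBP1 against WT edgeR and limma on log2(FPKM + 1) called 0 of the 10 regulators, with 4 and 7 of them under 0.05 before adjustment, and DESeq2 called 2 lower, among 79 of all tested genes. Stat3, which carries cytokine signals to Pomc, fell by 0.45 in ACreb3l2/AXBP1 (adjusted p = 0.0129), a call that was lost with library-size scaling, where 1 of the 10 regulators was called lower, and with the 4 libraries alone. Nr3c1, the glucocorticoid receptor that represses Pomc in corticotropes, rose by 0.46 there (adjusted p = 0.0488), a call that held in 6 of 16 alternatives and was lost with the replicate block, with FPKM and with the 4 libraries alone. Pax7, the factor that sets the melanotrope fate, had a log2 change of -0.08 (adjusted p = 0.822), and it is named here after its value was seen. Of 10 receptors of POMC peptides and their accessory proteins 2 had enough counts to be tested, Mc3r (log2 change -0.91 in ACreb3l2/AXBP1, adjusted p = 0.0648) and Mrap2 (-0.24, adjusted p = 0.221). DESeq2 and limma on log2(FPKM + 1) each called 1 of the 2 lower there.

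**Figure D5:**
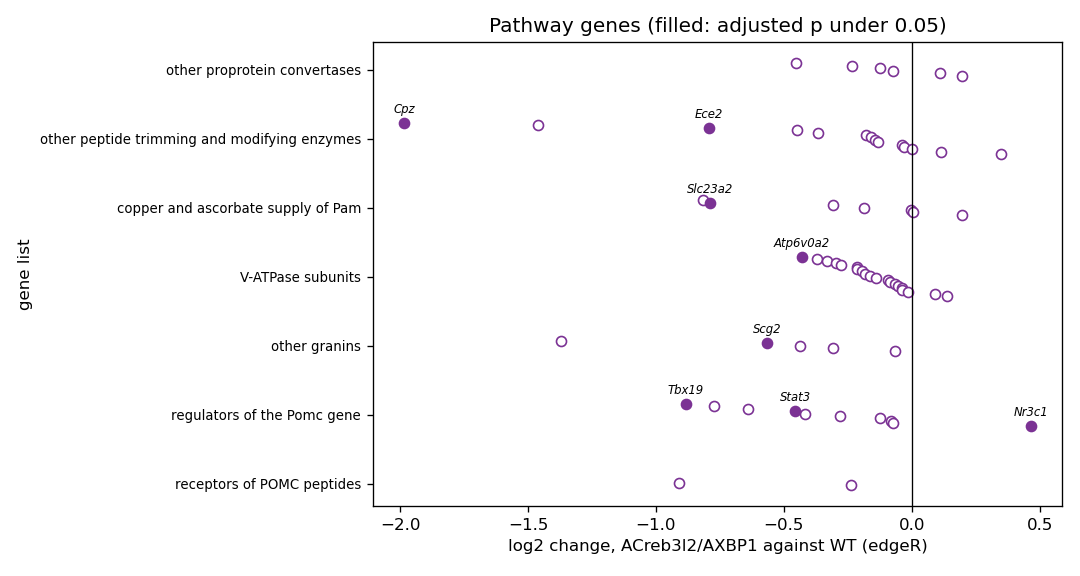
Log2 change in ACreb3l2/AXBP1 against WT (horizontal axis, edgeR) of the tested genes in 7 lists (rows), with filled, named points for adjusted p under 0.05. Of the 8 filled points 7 lie below 0, from Cpz at -1.98 to Atp6v0a2 at -0.43, and Nr3c1 lies above it at 0.46.

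Marker lists of other cell types in the lobe held few calls. All 6 endothelial markers were higher in AXBP1 and in ACreb3l2/AXBP1 than in WT, with median log2 changes of 0.42 and 0.51, and so they were with library-size scaling and FPKM. By edgeR 0 of them were called, with 0 in AXBP1 and 2 in ACreb3l2/AXBP1 under 0.05 before adjustment, and DESeq2 called 0 and 2. All 7 pituicyte or astroglia markers were higher in ACreb3l2/AXBP1, with a median of 0.42, and Aqp4 rose by 0.51 (edgeR adjusted p = 0.0464). In ACreb3l2 alone 6 of the 7 were higher, with a median of 0.46, and in AXBP1 alone 4 were, with 0.18. As the average of the ACreb3l2 transgene, Aqp4 rose by 0.40 and S100b of the same list by 0.56 (edgeR adjusted p = 0.0397 and 0.0373). For this average the call of Aqp4 was lost with library-size scaling, the replicate block and either FPKM fit. That of S100b was lost with limma on log2(FPKM + 1). Of the 5 tested melanotrope markers other than the 7 genes, 4 were lower in ACreb3l2/AXBP1, with a median of -0.12 (2 of the 5, with a median of 0.035, with library-size scaling), and Tbx19 was the one called by edgeR. DESeq2 and limma on log2(FPKM + 1) also called 1 of the 5 lower there, and in AXBP1 against WT DESeq2 called 1 and edgeR and limma 0, with 1 and 2 under 0.05 before adjustment. Of the 11 anterior lobe markers, 7 were lower in AXBP1 and 4 in ACreb3l2/AXBP1, and with library-size scaling 6 and 2 were. Both edgeR and DESeq2 called 0 in either group, with 4 and 0 under 0.05 before adjustment by edgeR. Among 3 tested stem cell or marginal zone markers, Sox2 rose by 0.37 and S100a6 fell by 0.73 in ACreb3l2/AXBP1 (adjusted p = 0.0354 and 0.0428). The call of S100a6 held in 8 of 16 alternatives and was lost with library-size scaling, with log2(FPKM + 0.1) and with the 4 libraries alone. The calls of Aqp4 and Sox2 each held in 6 of 16 alternatives and were lost with the replicate block, with FPKM and with the 4 libraries alone. The macrophage, fibroblast or pericyte, hypothalamic axon and erythroid lists had 0 calls by edgeR or DESeq2 in the comparisons with WT, and 0 to 2 genes of each list were under 0.05 before adjustment by edgeR. All 6 fibroblast or pericyte markers were higher in AXBP1 (median 0.32, 5 with FPKM), and 5 were in ACreb3l2/AXBP1 (0.20). All 4 erythroid markers were lower in both groups (-0.19 and -0.23). Of 6 macrophage markers 4 and 3 were higher there, and of 3 hypothalamic axon markers 2 and 1. The calls on these lists and on the genes beside the 7 depended on single libraries. In ACreb3l2/AXBP1 against WT edgeR called 11 genes of the lists, and all 11 calls were lost without ACreb3l2/AXBP1 2, with adjusted p from 0.0513 (Cpz and Ece2) to 0.350. Without WT 2, 8 were lost (adjusted p = 0.0970 to 0.262), and Cpz, Ece2 and Stat3 were still called. Slc23a2 and Tbx19 were also lost without WT 1 (adjusted p = 0.0512 to 0.0679), S100a6 without ACreb3l2/AXBP1 1 (0.0881), Scg2, Nr3c1, Aqp4 and Sox2 without either AXBP1 library (0.0512 to 0.0813), and Nr3c1, Aqp4, Sox2 and S100a6 without either ACreb3l2 library (0.0501 to 0.0659). All 11 kept their direction in each of these fits. In ACreb3l2 against WT, the call of Cpz was lost without ACreb3l2 2 (adjusted p = 0.0613). As the average of the ACreb3l2 transgene edgeR called 6.75% of all tested genes, and of the lists it called 7 genes: Cpz (log2 change -1.95), Ece2 (-0.47), Slc31a1 (-0.26), Atp6v0a2 (-0.32), Aqp4 (0.40), S100b (0.56) and Sox2 (0.25). The call of Atp6v0a2 was lost with library-size scaling and either FPKM fit, and that of Sox2 with these and the replicate block. Of these 7, Cpz and Ece2 were called without any 1 of the 8 libraries, and up to 5 were lost (adjusted p = 0.0650 to 0.205). S100b was lost without any 1 of the 6 libraries other than WT 1 and ACreb3l2 2 (adjusted p = 0.0717 to 0.132). The part of these shifts in the levels of the 7 genes was not tested.

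Across the 8 libraries, the 7 genes were not equally alike. Pearson's r of log2 CPM was highest for Pcsk1 and Pam (0.98) and lowest for Pcsk1n and Scg5 (0.17), and that of Pomc was 0.88 with Pam, 0.85 with Pcsk2 and 0.84 with Pcsk1. Among 9172 genes with at least 500 normalized counts on average, those most like Pomc included Bscl2 and Wfs1 (r = 0.99 for each). Those most like Pcsk1 were Tuba8, Maml3 and Sema4c (0.98 to 0.99), and those most like Pam were Atp2a2, Pak3 and Sema4c (0.99 to 1.00). For Pcsk2 they were Arhgap1, Kcnip3 and Eps8l2, for Cpe Fbxl15, Asna1 and Ngfrap1, for Pcsk1n Shc1, Bcor and Znfx1, and for Scg5 Flna, Vps33b and Ankrd24. An r above 0.9 was common for Pomc, Pam and Pcsk1, with 381, 372 and 326 of the genes, and rare for Pcsk1n (20) and Scg5 (7). The 8 points of each r share their libraries and 4 groups, so these values describe likeness over these libraries and nothing more.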

How the data were processed

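RNA-seq was deposited for 8 libraries in 4 groups of 2, taken from the labels. Per the labels RNA was depleted of ribosomal RNA, while the study's methods text names a poly(A) kit. The deposited raw counts are whole reads per gene: the authors trimmed with Trimmomatic, aligned to mm10 with Tophat (a software list names STAR) and counted with HTSeq, without normalization. The deposited FPKM values are scaled by the authors to gene length and mapped fragments, and Pam was summed over 2 loci. The annotation release and strand setting are not given in the sources used here.

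Genes with a mean normalized count above 20, the limit in the study's methods, were fitted in edgeR 4.0.16 (R 4.3.3, TMM, robust quasi-likelihood, 1 mean per group over all 8 libraries), with Benjamini-Hochberg adjustment over the 15580 genes tested and a call at adjusted p under 0.05. TMM factors ran from 0.913 to 1.10. Alternatives used DESeq2 1.42.0, limma 3.58.1 on log2(FPKM + 1) and log2(FPKM + 0.1), no count filter, library-size scaling, scaling without Pomc, a replicate block, the 4 libraries compared, and each library left out; their use on the lists was added after seeing the data. The tests were tried on simulated counts first. Replicates of a group differed beyond sampling noise (chi-squared per degree of freedom 10.7 to 48.5) and were distinct libraries. The labels do not say whether pools shared animals, so p-values measure the spread between these libraries. The 7 genes and all lists were chosen with earlier results of these data known. Named were all 7 genes and, of each list, the genes called in ACreb3l2/AXBP1 against WT or in a transgene average (at most 6) and, where fewer than 2 were called, the 2 of highest FPKM. One result is not reported here.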

Additional observations from a re-analysis of the deposited data

How the results depend on the processing

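Of 336 alternative values of the 21 changes against WT, 322 kept their direction and 14 did not. The number of the 7 genes called in ACreb3l2/AXBP1 against WT, 1, was 3 with DESeq2, 5 without the filter on low counts, 2 with library-size scaling, 2 with limma on log2(FPKM + 1), 3 on log2(FPKM + 0.1), 0 with the 4 libraries alone, and 0 to 4 with 1 library left out. Without the filter, 2 were called in ACreb3l2 against WT, 2 in AXBP1 against WT, 1 in ACreb3l2 against AXBP1, 2 in ACreb3l2/AXBP1 against AXBP1, 3 against ACreb3l2, and 4 for each transgene average, instead of 0. The AXBP1 average had 1 call with DESeq2 and 2 with either FPKM fit. Leaving out 1 library gave 0 to 2 calls for either average and 0 to 1 for ACreb3l2/AXBP1 against AXBP1 or ACreb3l2. The cause was not tested.

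Same-numbered libraries did not deviate together (correlations of -0.20 to 0.09), so the replicate numbers do not pair them. With the replicate block 2 of the 7 genes were called in ACreb3l2/AXBP1 against WT, Pcsk1 (adjusted p = 0.0388) and Pam (0.0434), by edgeR, and the block moved the count of called genes from 1566 to 1113 there and from 473 to 321 in ACreb3l2 against WT.

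Signs that turned belonged to changes that were not called. With library-size scaling alone, which moved the median of all genes by 0.16 in ACreb3l2/AXBP1 against WT and the share of lower genes among all called from 69.5% to 33.1%, they were Scg5 in ACreb3l2 (0.0078), Pcsk1n in AXBP1 (0.026) and ACreb3l2/AXBP1 (0.12), Pcsk1n in ACreb3l2/AXBP1 against AXBP1 (0.098), the Pcsk1 interaction (0.0032) and Cpe for the ACreb3l2 average (0.045). With FPKM, whose all-gene median moved by -0.15 in AXBP1, they were Scg5 in AXBP1 (-0.12 with either pseudocount), Pcsk2 (0.035) and Scg5 (0.082) in ACreb3l2 against AXBP1, Pcsk1n in ACreb3l2/AXBP1 against AXBP1 (0.14), the interaction of Pcsk1 (0.044 and 0.043), Pcsk2 (0.017 and 0.016) and Pam (0.0074 and 0.0073), and Cpe for the ACreb3l2 average (0.0068). Pcsk1n in ACreb3l2/AXBP1 against AXBP1, -0.0012, was 0.00047 with DESeq2, 0.0011 without Pomc in the scaling and 0.00084 with the 4 libraries alone.

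With 1 library left out, signs turned for these ranges. Against WT they were Pomc in ACreb3l2 (-0.51 to 0.071), Pcsk2 in AXBP1 (-0.51 to 0.10), Pcsk1n in AXBP1 (-0.12 to 0.055) and ACreb3l2/AXBP1 (-0.13 to 0.049), Scg5 in ACreb3l2 (-0.14 to 0.0081) and AXBP1 (-0.091 to 0.17), and Cpe in ACreb3l2 (-0.053 to 0.086). In ACreb3l2 against AXBP1 they were Pomc (-0.036 to 0.20), Pcsk2 (-0.34 to 0.032) and Scg5 (-0.24 to 0.024). In ACreb3l2/AXBP1 against AXBP1 they were Pcsk1 (-0.78 to 0.079), Pcsk1n (-0.070 to 0.063) and Cpe (-0.30 to 0.077), and against ACreb3l2 Pcsk2 (-0.69 to 0.031). For the interaction they were Pcsk1 (-0.51 to 0.36), Pcsk2 (-0.45 to 0.27), Cpe (-0.31 to 0.066) and Pam (-0.30 to 0.10), and for the ACreb3l2 average Cpe (-0.14 to 0.044), the ratio of Pcsk1 to Pcsk2 (-0.064 to 0.28) and that of Pomc to Pcsk2 (-0.10 to 0.14).

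The number of all genes called ranged from 152 to 755 for ACreb3l2, from 0 to 79 for AXBP1 and from 215 to 2074 for the double transgenic lobes, each against WT, over the alternatives that kept a filter on low counts, where 215 was without ACreb3l2/AXBP1 2. Without the filter, where more genes were tested, it was 1455, 628 and 3209, and it was 730 for ACreb3l2 against AXBP1, 755 for ACreb3l2/AXBP1 against AXBP1, 513 against ACreb3l2, 2203 for the ACreb3l2 average and 1277 for the AXBP1 average.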
